A study of Homo sapiens with 3 samples.

Results

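The regions described here lie in the hosts of a pair of paralogous microRNA clusters: C9orf3 on the plus strand of chromosome 9, which carries miR-23b, miR-27b and miR-24-1, and the MIR23A locus on the minus strand of chromosome 19, which carries miR-23a, miR-27a and miR-24-2. They were chosen by position in the deposited list of m6A regions, as every region on either strand whose midpoint fell between 97488 and 97875 kb of chromosome 9 or between 13944 and 13955 kb of chromosome 19 in hg19. This took in 71 of the 41836 regions, 67 in C9orf3 and 4 in the MIR23A locus. The loci were picked with the list already known, so the number of regions in C9orf3 is a description and supports nothing. The nearest region inside the C9orf3 limits began 79.0 kb from the upstream limit, and the nearest plus-strand regions outside lay 265.3 kb before and 747.2 kb after the interval. The nearest minus-strand regions outside the MIR23A limits lay 878.7 kb and 39.7 kb away.

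The source was nuclear RNA of MDA-MB-231, a human cell line of triple-negative breast cancer with a mesenchymal character. The RNA was precipitated with rabbit anti-m6A (2 libraries) or with control rabbit IgG (1 library). No treatment or mutation is given for any library, and the labels do not say whether the m6A libraries came from separate cultures. The deposited outcome was 1 list of regions with a position and a strand, and its score was 1 in every row. No value below therefore has a replicate error, a depth or a comparison with IgG, and no test was made. How much RNA each host gave and how strongly it was methylated cannot be told apart.

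N6-methyladenosine (m6A) is a methyl mark that the METTL3 and METTL14 complex places on adenosines of nuclear RNA. A microRNA begins as a hairpin in a long primary transcript, which DROSHA and its partner DGCR8 cut in the nucleus, and m6A on primary transcripts has been linked to DGCR8 binding. The miR-23, miR-27 and miR-24 clusters arose by duplication. Among their known targets are glutaminase for miR-23, the adipocyte regulator PPARG for miR-27 and cell cycle genes for miR-24. C9orf3, now named AOPEP, encodes a zinc-dependent aminopeptidase and hosts its microRNAs on its own strand. The miR-23a cluster is made from a dedicated noncoding transcript, MIR23AHG.

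The main mature products of the paralogous clusters are nearly the same molecules, so the comparison below sets different hosts of almost equal microRNAs side by side. They are shown 5′ to 3′ from RefSeq (GRCh38.p14), with the seed (bases 2 to 8) that pairs with targets in capitals.
miR-23b-3p: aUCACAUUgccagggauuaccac
miR-23a-3p: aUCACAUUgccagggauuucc
miR-27b-3p: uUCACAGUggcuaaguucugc
miR-27a-3p: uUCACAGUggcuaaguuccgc
miR-24-3p (made from both clusters): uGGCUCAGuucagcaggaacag

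Each 3p pair had the same seed. With positions counted from 1 at the 5′ end and the C9orf3 member's base first, miR-23b-3p and miR-23a-3p differed by A19U over their shared 21 bases, and miR-23b-3p was 2 bases longer. The miR-27 pair differed by U19C, and miR-24-3p was identical over 22 bases. miR-23c, a relative on the X chromosome, also carried the seed UCACAUU of the miR-23 pair. The 5p arms, usually the less abundant products, had drifted further: 6 of 22 bases differed for miR-24, 7 for miR-23 and 8 for miR-27. Of these arms the miR-27 pair differed within the seed, by A3G.

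The hairpins of C9orf3 were spread out more than those of the MIR23A locus. In the GRCh38.p14 sequence the 3 hairpins of C9orf3 spanned 881 nt (chromosome 9, 95085208 to 95086088), with 140 nt between miR-23b and miR-27b and 479 nt between miR-27b and miR-24-1. The 3 hairpins of the MIR23A locus spanned 373 nt (chromosome 19, 13836287 to 13836659), with 69 and 80 nt between them. The m6A regions are in hg19, and no position was converted between builds. The hg19 hairpin intervals used below are known to 0.1 kb only: 97847.5 to 97848.4 kb on chromosome 9 and 13947.1 to 13947.5 kb on chromosome 19.

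The hairpins are shown because methylated adenosines are usually found in a purine, purine, A, C context. Capitals mark GGAC or GAAC or AGAC or AAAC, searched on the strand of the hairpin.
mir-23b: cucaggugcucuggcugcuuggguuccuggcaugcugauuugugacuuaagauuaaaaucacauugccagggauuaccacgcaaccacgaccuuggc
mir-27b: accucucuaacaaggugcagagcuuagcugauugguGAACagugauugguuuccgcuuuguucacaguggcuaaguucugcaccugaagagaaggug
mir-24-1: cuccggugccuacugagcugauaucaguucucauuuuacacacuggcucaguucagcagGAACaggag
mir-23a: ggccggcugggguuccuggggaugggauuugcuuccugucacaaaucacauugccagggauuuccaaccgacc
mir-27a: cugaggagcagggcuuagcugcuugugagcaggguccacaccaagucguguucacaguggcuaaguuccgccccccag
mir-24-2: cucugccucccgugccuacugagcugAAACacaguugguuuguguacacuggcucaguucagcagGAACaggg

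The C9orf3 hairpins held 1 such motif each in mir-27b and mir-24-1 and none in mir-23b. Those of the MIR23A locus held 2 in mir-24-2 and none in mir-23a or mir-27a. None of the 6 held GGAC, which 27.3% of the 1562 human hairpins in the RefSeq table hold, and 62.7% of those hairpins hold at least 1 of the 4 motifs. The 4 motifs do not overlap in these hairpins. On the opposite strand, 74.4% of the 1562 hairpins hold one, and so do all 6 of these. Their counts there were 1 in mir-23b and mir-23a, 3 in mir-27b and mir-27a, and 2 in mir-24-1 and mir-24-2. A match is a string of letters and not a methylated site. Another microRNA inside C9orf3, miR-2278, has a hairpin with 4 matches, 2 of GGAC and 2 of AGAC. The hairpin of miR-3074, which lies opposite mir-24-1 on the minus strand, has 2 matches, both GAAC.

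The m6A regions of C9orf3 followed the strand of the gene. All 67 lay on the plus strand, which holds 42.6% of the whole list, and the 387 kb interval contained no minus-strand region. The nearest minus-strand region ended 182.9 kb before it, although RefSeq places an antisense noncoding gene, AOPEP-AS1, inside AOPEP. The 4 regions of the MIR23A locus lay on the minus strand, the strand of the microRNAs, which holds 57.4% of the list. The nearest plus-strand region there was 2.0 kb outside the limits. Neighbouring regions of the list tend to share a strand, so these counts are not independent observations.

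The regions of C9orf3 were gathered toward the downstream end of the chosen interval, which is not the end of the gene in RefSeq. The first region lay from 97566992 to 97567155 and was 164 nt wide. It was followed by 7 more up to 97693024, so that the first 8 regions were scattered over 126.0 kb at 0.63 regions per 10 kb. No region was listed over the next 74.4 kb. The other 59 regions lay between 97767446 and 97872303, a stretch of 104.9 kb at 5.63 regions per 10 kb. Of 39 bins of 10 kb along the interval, 20 held no region, and 5 held 5 or more.

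**Figure D1:**
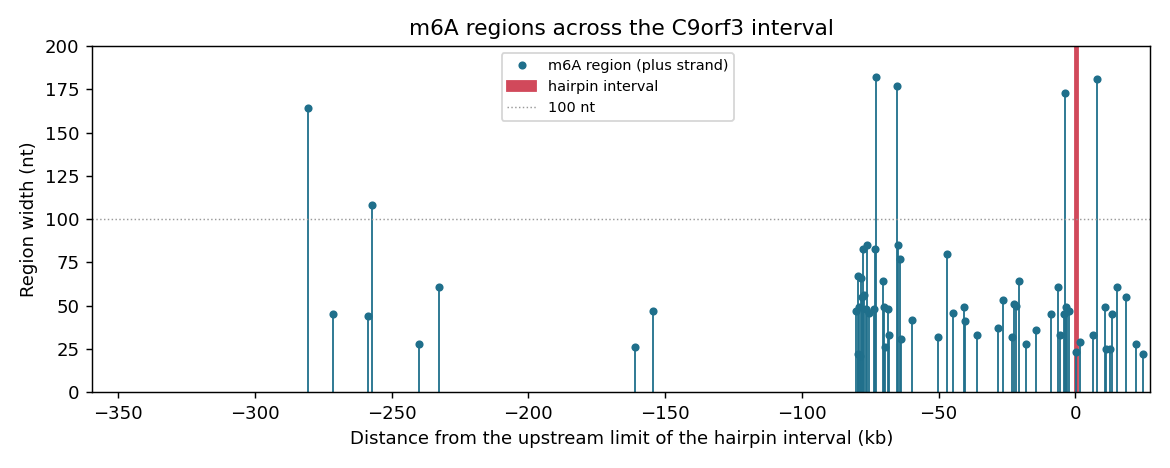
Each plus-strand m6A region of C9orf3, by the distance of its midpoint from the upstream limit of the hairpin interval (kb, negative upstream) and its width (nt, height of the line); the red band is the hairpin interval and the dotted line marks 100 nt. The 8 scattered regions stand to the left of a 74.4 kb stretch without any, and the other 59 form the dense group on the right that includes the hairpins.

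The fullest 10 kb bin was not at the microRNAs but centred 74.5 kb before them. The dense group began 80.1 kb upstream of the hairpins with 25 regions in 20.4 kb (97767446 to 97787846), or 12.3 per 10 kb. The bin from 97768 to 97778 kb held 16 regions, the most of any bin in the interval. A window of 10 kb opened at 97767446 held 17. Opened at every region of the list in turn, such same-strand windows held a median of 2 regions and at most 23, and 133 of 41836 (0.318%) held 17 or more. The 17 is the fullest of the windows opened at the 67 regions, and windows overlap. The 0.318% is therefore a place in the list and does not measure how rare the block is. Behind this block the gene had 6 regions in 14.6 kb (97797135 to 97811730) and 8 in 13.8 kb (97819207 to 97833029). The last block, with 20 regions in 33.7 kb (97838608 to 97872303), contained the hairpins. Gaps of more than 5 kb separated the 4 blocks, the largest of 9.29 kb.

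**Figure D2:**
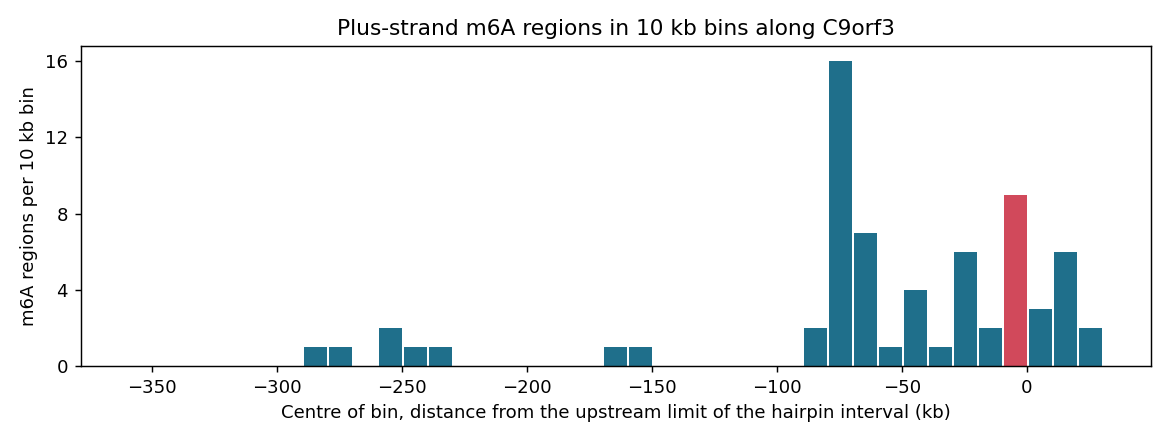
Number of plus-strand m6A regions (vertical axis) in consecutive 10 kb bins along C9orf3 (horizontal axis, distance of the bin centre from the upstream limit of the hairpin interval in kb; the last bin is 7 kb long). The tallest bar, of 16 regions, has its centre 74.5 kb before the hairpins, and the red bar, of 9 regions, is the bin that holds the upstream limit of the hairpin interval.

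At the microRNAs of C9orf3, 1 region lay inside the interval of the hairpins. It ran from 97847830 to 97847852 and was 23 nt wide, which makes it 1 of 4 regions of at most 23 nt in the gene. Regions that narrow make up 9.35% of the list. It started 0.3 kb after the upstream limit of the hairpin interval and ended 0.5 kb before the downstream limit. Whether it touches mir-27b or lies in the spacer beside it was not resolved with limits known to 0.1 kb.

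Upstream of the C9orf3 hairpins, the nearest region ran from 97845273 to 97845319 (47 nt) and ended 2.2 kb before them. It was the last of 5 regions within 5 kb. The others were 97844390 to 97844436 (47 nt), 97844173 to 97844221 (49 nt), 97843743 to 97843915 (173 nt) and 97843395 to 97843439 (45 nt). Downstream, 1 region lay within 5 kb, from 97849305 to 97849333 (29 nt), 0.9 kb past the hairpins. Within 10 kb there were 8 regions upstream and 3 downstream, and within 20 kb there were 10 and 9. The hairpins thus sat in a stretch with regions on both sides, and the row of regions ran on to a last region from 97872282 to 97872303 (22 nt), 23.9 kb past them. RefSeq extends AOPEP by 64.1 kb past mir-24-1 in GRCh38.p14, and widening the hg19 limits by 50 kb added no region.

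At the microRNAs of the MIR23A locus, the regions lay on the upstream side only. The 4 regions, in the direction of transcription, ran from 13952761 to 13952870 (110 nt), from 13951727 to 13951753 (27 nt), from 13950960 to 13951241 (282 nt) and from 13950491 to 13950539 (49 nt). They ended 5.3, 4.2, 3.5 and 3.0 kb before the hairpins and together spanned 2.38 kb. No region was listed over the hairpins or in the 3.1 kb from them to the downstream limit, and within 50 kb downstream on the minus strand the list held 0 regions. RefSeq ends MIR23AHG 1.8 kb past mir-24-2 in GRCh38.p14. The host transcript thus takes in the nearer part of the 3.1 kb, while most of the 50 kb is outside it. AOPEP runs on for 64.1 kb past its last hairpin, so the downstream sides of the clusters are not like for like. In RefSeq, AOPEP is 423.5 kb long and MIR23AHG, the host transcript of miR-23a, is 8.4 kb long.

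**Figure D3:**
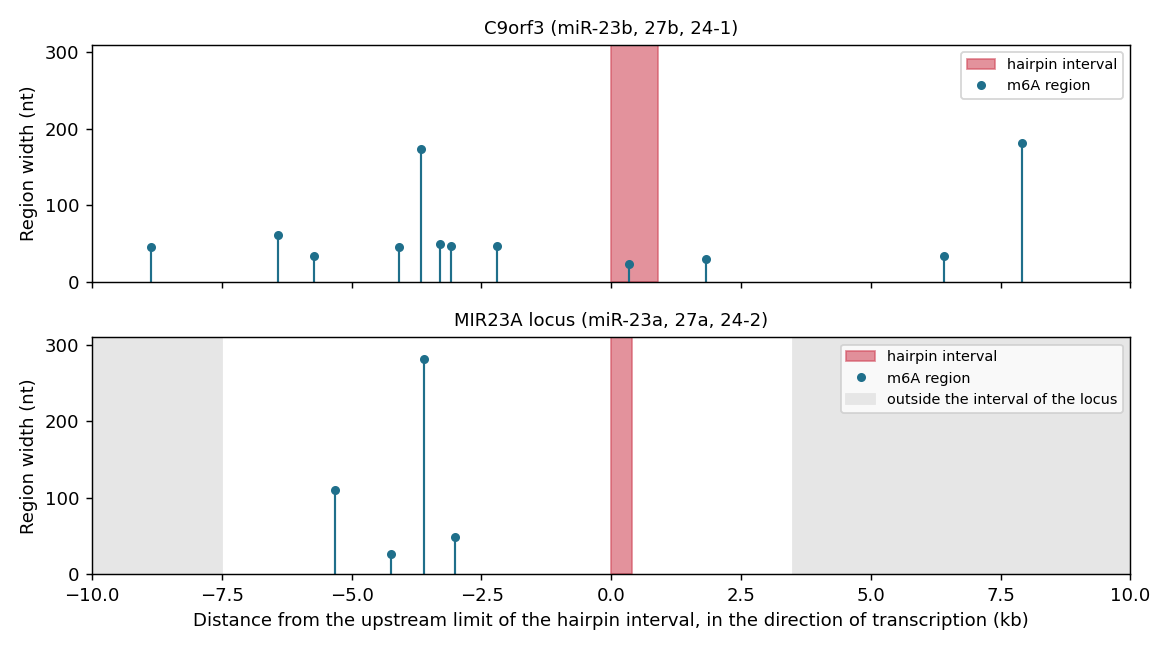
m6A regions within 10 kb of the hairpins of C9orf3 (top) and of the MIR23A locus (bottom), by distance of the midpoint from the upstream limit of the hairpin interval in the direction of transcription (kb) and by width (nt); red bands are the hairpin intervals and grey marks positions outside the limits of the MIR23A locus. C9orf3 has 1 region in the red band and regions on both sides, whereas the 4 regions of the MIR23A locus all stand upstream.

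Windows with the same flanks were set around both clusters, with flanks taken from the limits of the MIR23A locus. The MIR23A window is thus its whole locus, with 4 regions, and only the C9orf3 count could fall. The windows measured 11.5 kb in C9orf3 and 11 kb in the MIR23A locus, because the hairpin intervals are 0.9 and 0.4 kb long. From 7.5 kb upstream to 3.1 kb downstream of the hairpins, C9orf3 held 9 regions (7 upstream, 1 in the hairpin interval and 1 downstream), and the MIR23A locus held 4, all upstream. The regions of C9orf3 covered 507 nt of this window and those of the MIR23A locus 468 nt. The windows are not matched for transcript. In RefSeq, MIR23AHG is 8.4 kb long, shorter than its window, whereas AOPEP runs past both ends of its own. Per length of the whole loci, C9orf3 had 17.3 regions per 100 kb and the MIR23A locus 36.4. The first interval is a long gene, however, and the second is 11 kb around 1 short transcript. In the windows the order was the reverse, with 9 regions in 11.5 kb of C9orf3 against 4 in 11 kb of the MIR23A locus. Both clusters had 0 regions within 2 kb upstream of their hairpins, and both had a region over 150 nt between 3 and 4 kb upstream: 173 nt, 3.6 kb before the C9orf3 hairpins, and 282 nt, 3.5 kb before those of the MIR23A locus. This likeness was noticed after the values were seen, and it was not tested.

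The widths in C9orf3 resembled those of the list. The median was 47 nt (quartiles 33 and 61 nt, range 21 to 182 nt), against 45 nt over all regions (33 and 54 nt) and 44 nt over the 817 plus-strand regions of chromosome 9. Of the 67 regions, 6 were wider than 100 nt, or 8.96%, against 10.3% of the whole list. The 95% Clopper-Pearson interval, 3.36 to 18.5%, gives counting error only, as if regions were independent draws, and is not a test. Exactly 49 nt, the most frequent width of the list, was held by 5 regions (7.46%), against 8.79% of the list. On the plus strand that share was lower, 5.17% of all plus-strand regions and 4.65% of those of chromosome 9. The 5 widest were 97774512 to 97774693 (182 nt), 97855322 to 97855502 (181 nt), 97782044 to 97782220 (177 nt), 97843743 to 97843915 (173 nt) and the first region of the gene (164 nt). They were scattered: those of 182 and 177 nt lay in the dense block before the hairpins, and those of 173 and 181 nt on either side of the hairpins.

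Widths differed in value along the gene. The 47 regions of the dense group upstream of the hairpins had a median of 48 nt, and the 11 downstream had 33 nt, a difference for which no test was made. The MIR23A locus, with 4 regions, had a median of 79.5 nt (27 to 282 nt), and 2 of its 4 were wider than 100 nt, against 10.3% of the list. With 4 values, the Clopper-Pearson interval of that share, again as if regions were independent draws, ran from 6.76 to 93.2%.

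Chains were made by joining same-strand regions at most 10 kb apart, and 143 of them held 20 or more regions. Among these 143, the only chains ranked, the C9orf3 chain was long rather than dense. It held the 10th largest number of regions, shared with another chain of 59, and had the 7th longest span. These ranks hold for the 10 kb joining distance: joined at 5 kb, the chain over the hairpins held 20 regions in 33.7 kb, and joined at 1 kb it held 1. Its density of 5.63 regions per 10 kb ranked 76th, near the median of 5.71, and its median width of 48 nt stood beside a median of 48.5 nt over the 143. Regions covered 3.15% of its length, against a median of 3.86%. Regions over 100 nt were 4 of its 59, or 6.78%, against 10.3% of the whole list and a median of 15% over the 143 chains. A larger share was found in 125 of the 143. The C9orf3 chain was 1 of 102 of these chains with no region on the opposite strand. The 4 regions of the MIR23A locus formed a chain of their own. The fullest 10 kb window of that locus held 4, and windows with at least 4 same-strand regions were 27.04% of those in the list.

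**Figure D4:**
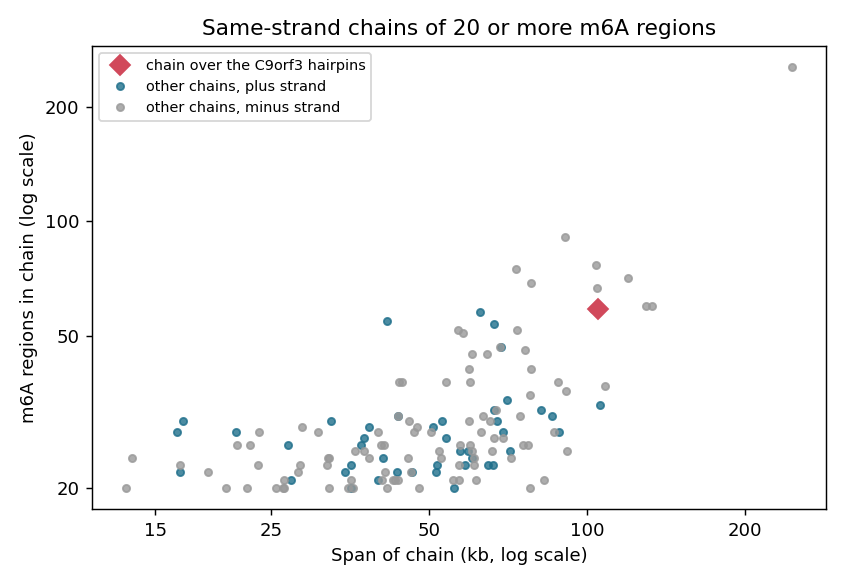
Number of m6A regions (vertical axis, log scale) against span in kb (horizontal axis, log scale) for the 143 same-strand chains of 20 or more regions, with the chain over the C9orf3 hairpins as a red diamond. The diamond, at 59 regions and 104.9 kb, lies among the chains with the most regions and the longest spans, and covers the point of the other chain of 59 regions.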

How the data were processed

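The libraries were 2 m6A precipitations and 1 IgG precipitation of MDA-MB-231 nuclear RNA. The submitters' processing notes name Bowtie2 and hg19. For the peak caller, its thresholds and the merging of libraries, the sources used here state nothing. The deposited list gives start and end positions, and its score, as deposited by the authors, is 1 in every region. Depth, enrichment and replicate spread are therefore unknown, and strand is as deposited.

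Positions are counted from 1, and width is the end minus the start as deposited. Locus limits and hairpin intervals in hg19 came with the rule that chose the regions. Distances run from edge to edge in the direction of transcription. Chains join same-strand regions at most 10 kb apart. The functions were tested on simulated data. The members, lists, windows and descriptions were chosen with earlier results of these data known. Regions named singly were all those of the MIR23A locus and, in C9orf3, the first and last, those nearest to or within 5 kb of the hairpins, and the 5 widest. Sequences for 9 of 9 microRNA genes came from RefSeq (GRCh38.p14). No genome sequence in hg19 was used, so no region was given a sequence, an exon or an intron. The versions were matplotlib 3.10.9, scipy 1.17.1, pandas 2.3.3 and numpy 2.4.6 under Python 3.11.15.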

Additional observations from a re-analysis of the deposited data

How the results depend on the processing

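Of 26 alternatives, 5 moved a count by more than 1.5 times. The share of wide regions changed with the threshold: in C9orf3 it was 17.9% over 75 nt, 8.96% over 100 nt and 7.46% over 150 nt, and in the MIR23A locus 50% over 75 and 100 nt and 25% over 150 nt. The shares over 75 and 150 nt lay inside the wide counting intervals of the share over 100 nt and were not among the 5. Those intervals belong to the 100 nt threshold alone, so this does not show stability. For the whole list only the share over 100 nt, 10.3%, is given, so the other thresholds have no comparison. The 67 regions of C9orf3 were also found with any overlap, with whole inclusion and with limits widened by 10 or 50 kb, and the 4 of the MIR23A locus became 5 at 50 kb. Counts that rest on a width or a distance moved by construction. Regions wider than the list median of 45 nt, which by definition at most 50% of the list exceeds, numbered 39 of 67 in C9orf3. Joining regions at most 500 nt apart left 2 in the MIR23A locus. The chain over the C9orf3 hairpins held 20 regions when joined at 5 kb and 1 when joined at 1 kb, against 59 at 10, 20 and 50 kb. The fullest bin held 10 regions at 5 kb, 16 at 10 kb and 23 at 20 kb. The windows with equal flanks were added after seeing the data. Leaving out a library was not run, since the list holds merged regions alone. With no read counts, what depth limits is unknown.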
